A study of Mus musculus with 51 samples.

Results

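Axon guidance ligands and receptors were the subject here, in laser-captured cell layers of 3 hippocampal subfields of rTg4510 mice and their littermates. The genes were taken by symbol from 10 families, namely semaphorins, plexins, neuropilins, Eph receptors, ephrins, Slits, Robos, netrins with netrin-Gs, Unc5 receptors and Dcc, and the probe set with the highest mean signal stood for each gene. This gave 56 of the 11807 genes that carried a single symbol on the array, 31 ligands and 25 receptors, covered by 92 probe sets in all. There were 17 semaphorins, 6 plexins, 2 neuropilins, 11 Eph receptors, 7 ephrins, 2 Slits, 2 Robos, 5 netrins and netrin-Gs, 3 genes whose symbol begins with Unc5, and Dcc. Unc50 entered through its symbol alone, since it encodes a membrane trafficking protein of the Golgi and is not a guidance receptor.

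The study asked how gene expression in the hippocampus differs in mice that express mutant human tau. The rTg4510 mice carried the human tau (P301L) transgene under a tetracycline-responsive element and the transactivator tTA under the CaMKIIα promoter, which is active in forebrain excitatory neurons, so that tau is made there unless doxycycline is given. The tTA mice carried the transactivator alone, and the double negative (DN) mice carried neither transgene. All were littermates from FVB/N breeders with the tau transgene crossed to tTA breeders of another strain, were 4.5 months old and were labelled female, and 6 rTg4510, 5 tTA and 6 DN mice each gave 1 array of the CA1 pyramidal layer, 1 of the CA3 pyramidal layer and 1 of the granular layer of the dentate gyrus (DG). Signals are log2 values, so that a difference of 1 is a doubling. Array medians ran from 2.91 to 3.12.

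Guidance molecules steer growing axons by attraction or repulsion. Secreted Slits act through Robo receptors, secreted netrins through Dcc and Unc5 receptors, semaphorins through plexins with or without neuropilins, and ephrins through Eph receptors on touching cells. In the adult hippocampus many of these genes stay on in principal neurons, where Eph receptors, semaphorins and netrin-Gs are known to act at synapses and in the layering of inputs.

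The labels were checked before the members were compared. Prnp, whose sequence is part of the vector of the tau transgene, read 9.59 to 10.55 in 17 arrays labelled rTg4510 and 6.57 to 8.76 in 27 arrays labelled tTA or DN. The library labelled DN mouse 5 in DG and all 3 libraries labelled DN mouse 4 read with the rTg4510 arrays, and the library labelled rTg4510 mouse 3 in DG read 7.34. Together with these 5 arrays, the CA1 and CA3 libraries labelled DN mouse 5, whose Xist signals of 2.49 and 4.06 were low for a female, made 7 that went against a label. The library labelled rTg4510 mouse 3 in DG also read low for Xist, at 2.50, while that labelled DN mouse 5 in DG read 9.91, and the other arrays ran from 7.85 to 10.26. They were kept under their labels, and results were also computed without the 5 arrays and without the 7. The marker list of an array's own subfield stood highest in 47 of 51 arrays. In the other 4, the CA1 arrays of rTg4510 mice 1 and 6, tTA mouse 1 and DN mouse 2, CA3 markers stood above CA1 markers, and subfields were also compared without these.

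Subfields differed widely in these genes, and CA3 and DG most of all. Of the 56 genes, 20 passed an adjusted p of 0.05 between CA3 and DG (limma with the mouse as a block, Benjamini-Hochberg over 22626 probe sets), 16 higher and 4 lower in CA3, which is 35.7% of them against 13.9% of all probe sets (7.27% higher and 6.59% lower). Between CA1 and DG 14 passed, 7 in each direction, or 25% against 10.9% of all probe sets (5.6% higher and 5.33% lower). Between CA1 and CA3 12 passed, 3 higher and 9 lower in CA1, or 21.4% against 4.68% of all probe sets (2.46% higher and 2.22% lower). At an unadjusted p below 0.05 there were 27 genes between CA3 and DG, 20 between CA1 and DG and 18 between CA1 and CA3, or 48.2%, 35.7% and 32.1% of them, against 25.9%, 21.9% and 15.9% of all probe sets. These shares are not like for like. Each of the 56 genes is read on its brightest probe set, whereas all probe sets include dimmer ones and 4336 without a symbol. How much of the gap comes from this choice was not tested. The median difference of the 56 genes was −0.03 for CA1 minus CA3, 0.00 for CA1 minus DG and 0.00 for CA3 minus DG, beside −0.03, 0.02 and 0.05 over all probe sets. In these bulk samples fewer cells of a type and less RNA per cell cannot be told apart.

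In all, 27 genes passed in at least 1 subfield comparison. Slit1, Slit2, Robo1, Unc5c, Dcc and Sema5b stood higher in CA3 than in both CA1 and DG. Epha3, Epha4, Epha5, Epha6, Ephb3 and Sema3e stood higher in both CA1 and CA3 than in DG. Sema5a and Nrp2 stood lower in CA1 than in both other subfields, Sema6d and Ntng1 stood higher in DG than in both pyramidal layers, and Efnb3 stood lower in CA3 than in both. A further 10 passed in 1 comparison only, and 29, among them all 6 plexins, passed in none. Of the 29 genes whose mean signal lay below the mean array median of 3.02, 7 passed in some comparison, and of the 27 brighter genes 20 did. A difference may be missed where signal lies near background.

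**Figure D1:**
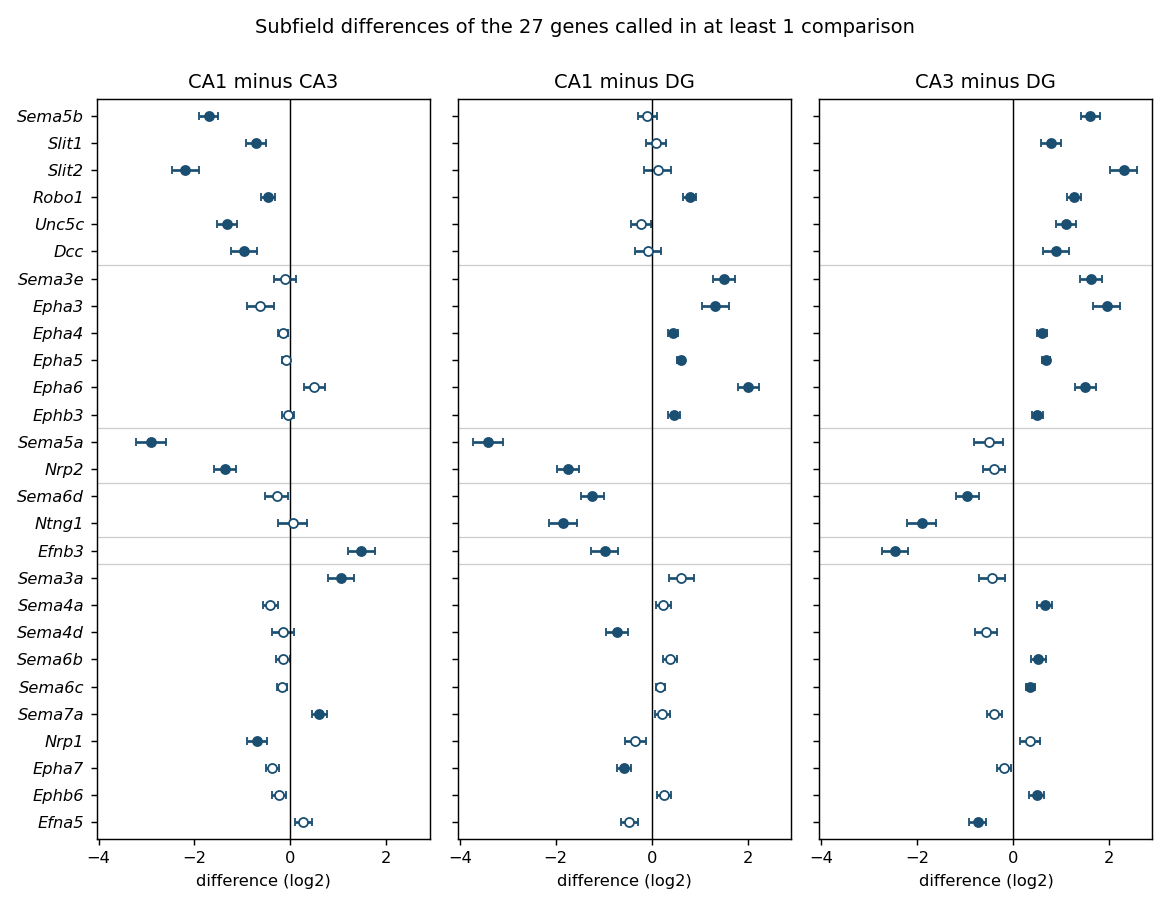
Differences between subfields (x axis, log2, error bars SE, 17 mice) for the 27 genes called in at least 1 comparison, in the order of the patterns above with grey lines between them. Filled points passed an adjusted p of 0.05 (limma), and the genes of the top block lie left of 0 for CA1 minus CA3 and right of 0 for CA3 minus DG.

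The promoters of 4 of these genes are shown because they stand for 3 of the patterns, Slit2 and Unc5c for those highest in CA3, Epha6 for those low in DG and Sema5a for those low in CA1. Each runs from 250 bases before to 50 bases after a transcription start in RefSeq (GRCm38.p6). For Unc5c and Sema5a this start is the outer end of the gene's span. The Slit2 and Epha6 windows lie inside the spans of their genes (chr5:47981291-48307735 and chr16:59641433-60610911), at starts downstream of the outermost. Capitals mark GC boxes (GGGCGG or CCGCCC), the E boxes CAGATG (or CATCTG) and CAGCTG, and TATA boxes (TATAAA or TTTATA), on either strand and with overlapping matches counted.
Slit2, chr5:47982905-47983204, plus strand: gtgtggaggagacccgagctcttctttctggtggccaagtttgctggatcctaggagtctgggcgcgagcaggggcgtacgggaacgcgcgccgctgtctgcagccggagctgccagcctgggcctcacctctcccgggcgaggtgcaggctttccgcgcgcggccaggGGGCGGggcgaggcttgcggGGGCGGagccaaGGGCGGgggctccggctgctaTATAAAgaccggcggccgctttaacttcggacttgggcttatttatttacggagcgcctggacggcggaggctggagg
Unc5c, chr3:141465314-141465613, plus strand: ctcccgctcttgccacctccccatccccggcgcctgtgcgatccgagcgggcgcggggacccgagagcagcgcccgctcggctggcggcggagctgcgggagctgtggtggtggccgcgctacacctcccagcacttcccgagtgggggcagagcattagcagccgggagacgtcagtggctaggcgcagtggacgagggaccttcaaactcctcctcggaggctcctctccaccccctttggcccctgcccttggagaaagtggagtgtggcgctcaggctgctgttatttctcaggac
Sema5a, chr15:32244563-32244862, plus strand: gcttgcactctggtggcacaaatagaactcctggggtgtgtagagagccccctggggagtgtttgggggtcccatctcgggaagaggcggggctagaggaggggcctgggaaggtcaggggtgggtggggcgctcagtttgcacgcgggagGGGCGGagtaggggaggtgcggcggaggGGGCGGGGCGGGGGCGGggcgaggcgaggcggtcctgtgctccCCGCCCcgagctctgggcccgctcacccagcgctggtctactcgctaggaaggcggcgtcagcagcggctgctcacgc
Epha6, chr16:60605482-60605781, minus strand: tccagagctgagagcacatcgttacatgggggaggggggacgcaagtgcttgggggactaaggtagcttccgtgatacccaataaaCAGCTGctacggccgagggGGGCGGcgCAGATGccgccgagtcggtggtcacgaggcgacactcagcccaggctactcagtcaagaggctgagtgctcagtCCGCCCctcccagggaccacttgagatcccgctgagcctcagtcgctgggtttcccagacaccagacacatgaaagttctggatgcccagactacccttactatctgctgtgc
The Slit2 stretch held 3 GC boxes and a TATA box, the Sema5a stretch 5 GC boxes and the Epha6 stretch 2 GC boxes and both E boxes, while the Unc5c stretch held none of these letters. Of the 48 members with an entry in the table, 77.1% had a GC box, against 35.7% of all 32851 promoters of the same length, and the median GC content was 64.5% against 52.7%. This comparison is not like for like. The 48 members gave 48 windows, a chosen start for each, whereas the 32851 promoters were taken without such a choice. How much of the gap comes from this was not tested. The E box CAGATG was in 8.33% of member promoters and 17.2% of all promoters, with the same limit. These are matches of letters in one window, and no binding was measured.

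Both Slits, a family of secreted repellents, were higher in CA3 than in CA1 and DG. Slit2 (chr5:47981291-48307735) read 1.92, 3.47 and 5.86 as the lowest, median and highest of 17 CA1 arrays. It read 5.12, 6.11 and 6.65 in CA3 and 2.40, 3.67 and 5.10 in DG. The CA3 and DG arrays did not overlap, which held for no other of the 56 genes and for 0.486% of all probe sets, while CA1 arrays ran from the DG level up into the CA3 range. Slit2 was 2.31 higher in CA3 than in DG (SE 0.28, 4.96-fold, adjusted p 1.5e-07, limma) and differed by −2.19 between CA1 and CA3 (SE 0.28, adjusted p 2.5e-06), each in 17 of 17 mice. Without the 4 CA1 arrays that carried CA3 markers, the difference of CA1 from CA3 was −2.58. The other Slit2 probe set on the array, which had a mean of only 2.46, gave −0.94 for CA1 minus CA3 and 0.97 for CA3 minus DG, and both passed.

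Slit1, the paralog, averaged 4.32 ± 0.52 in CA1, 5.03 ± 0.80 in CA3 and 4.24 ± 0.57 in DG (SD, n = 17 each). Its excess in CA3 over DG was 0.80 (adjusted p 0.00688), and its difference of −0.72 between CA1 and CA3 (adjusted p 0.0376) no longer passed when any of 11 mice was left out, with an adjusted p of up to 0.0942 without tTA mouse 2. That difference was lost too without the 5 or the 7 arrays (up to 0.107), and the excess over DG was lost without the 7 arrays (0.0647). Robo1, a receptor for both Slits, read 6.81, 7.88 and 8.41 in CA1 as lowest, median and highest, 7.38, 8.38 and 8.84 in CA3, and 5.99, 7.07 and 7.83 in DG. CA3 was highest and DG lowest, with the arrays of all 3 subfields overlapping. Robo1 was 1.27 higher in CA3 than in DG (SE 0.14, adjusted p 1.8e-08, 17 of 17 mice) and 0.79 higher in CA1 than in DG (SE 0.14, adjusted p 0.000102, 16 of 17 mice). The smaller difference of −0.47 between CA1 and CA3 (adjusted p 0.0419) was lost when any of 9 mice was left out, with an adjusted p of up to 0.101 without DN mouse 6. It was lost too under quantile normalization, under other blocks, with DN and tTA mice only and without the 5 or the 7 arrays. Robo4, the Robo of endothelial cells, lay below the array median in all 51 arrays and its differences ran from −0.08 to 0.02.

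Of the netrin receptors, Unc5c and Dcc were higher in CA3 than in CA1 and DG and Unc5b passed in no comparison, while the means of the netrins themselves were close to background. Unc5c, a receptor for repulsion by netrin, read 5.57, 6.98 and 8.34 in CA1 as lowest, median and highest, 7.57, 8.33 and 8.83 in CA3, and 5.55, 7.34 and 8.08 in DG. CA3 arrays lay close together at the top, whereas CA1 and DG arrays were widely spread and reached into the CA3 range. The difference was −1.33 for CA1 minus CA3 (SE 0.21, adjusted p 4.6e-05, lower in 16 of 17 mice) and 1.10 for CA3 minus DG (SE 0.21, adjusted p 0.000199, higher in 17 of 17 mice). The other Unc5c probe set gave −1.23 and 1.48, and both passed.

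Dcc, the receptor through which netrin attracts axons, averaged 4.41 ± 0.66 in CA1, 5.36 ± 1.13 in CA3 and 4.48 ± 0.96 in DG (SD, n = 17 each). CA3 minus DG was 0.89 (adjusted p 0.0229), and CA1 minus CA3 was −0.96 (adjusted p 0.0307). Neither call held in every subset of mice. The call of CA3 against DG was lost without tTA mouse 1 (adjusted p 0.0523), without rTg4510 mouse 6 (0.0542) or without rTg4510 mouse 3 (0.0555), and the call of CA1 against CA3 when any of 7 mice was left out (up to 0.0787 without rTg4510 mouse 3). Both were lost too with no mouse block, with DN and tTA mice only and without the 5 or the 7 arrays. The adjusted p then reached up to 0.177 for CA3 against DG and 0.158 for CA1 against CA3. Unc5b, a receptor also found on endothelium, averaged 4.08, 3.83 and 3.62 in CA1, CA3 and DG. Ntn1, the main netrin, averaged 2.78 in CA1, 2.74 in CA3 and 2.73 in DG, and Ntn3 and Ntn4 also had means below the array median. Single arrays stood well above it. Ntn1 read 4.67 in CA3 of rTg4510 mouse 3. In DG, Ntn4 read 4.33 in DN mouse 3, 3.99 and 6.4 in rTg4510 mice 4 and 5 and 5.17 in tTA mouse 5. The other DG arrays lay at 2.27 or below for Ntn4. Unc50, which shares only the letters of its symbol with these receptors, averaged 7.11 in CA1, 7.15 in CA3 and 7.10 in DG.

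Among the semaphorins, Sema5a showed the largest difference of any of the 56 genes. Sema5a (chr15:32244813-32696341) encodes a transmembrane semaphorin that restrains synapse formation on granule cells of the mouse dentate gyrus through plexin A2. It read 1.84, 4.18 and 6.68 in CA1 as lowest, median and highest, 5.83, 7.20 and 8.50 in CA3, and 6.16, 7.72 and 8.51 in DG. CA1 arrays were lowest and by far the most scattered. Sema5a was lower in CA1 than in DG in 17 of 17 mice, with a difference of −3.41 (SE 0.31, 10.7-fold lower, adjusted p 6.3e-10, limma), and lower in CA1 than in CA3 in 17 of 17 mice, with a difference of −2.90 (SE 0.31, 7.48-fold lower, adjusted p 9.4e-08). The 4 CA1 arrays with high CA3 markers read 5.66 and 6.22 (rTg4510 mice 1 and 6), 5.41 (tTA mouse 1) and 6.68 (DN mouse 2), and without them the differences were −3.91 and −3.40. The other probe set of Sema5a gave −3.61 and −2.53. CA3 minus DG was −0.51 and did not pass.

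**Figure D2:**
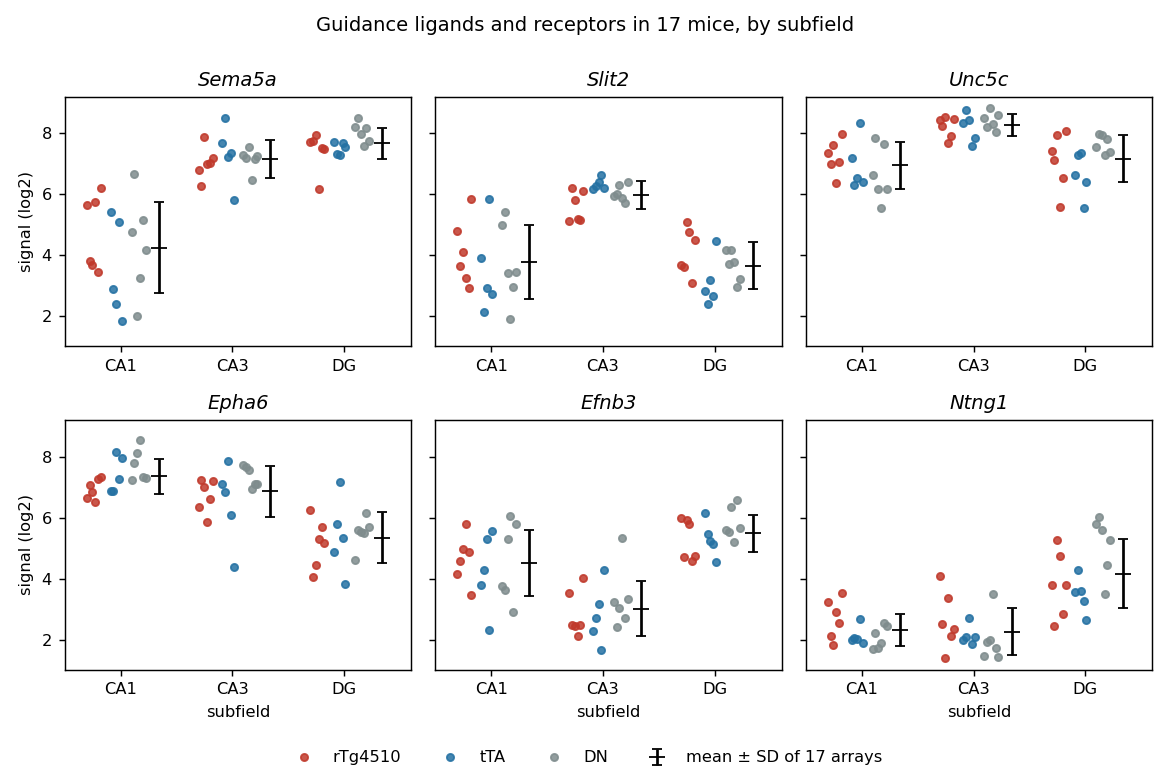
Signal (y axis, log2) of Sema5a, Slit2, Unc5c, Epha6, Efnb3 and Ntng1 in every array by subfield (x axis), with points coloured by genotype and bars giving the mean and SD of 17 arrays. Sema5a spans 1.84 to 6.68 in CA1, and Slit2 lies at 5.12 or above in CA3 and at 5.10 or below in DG. The ranges of the genotypes overlap within each subfield for every gene shown, though some are shifted, as for Slit2 in CA3 and Ntng1 in DG.

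Sema5b, the closest relative of Sema5a, followed another course. It averaged 2.76 ± 0.53 in CA1, 4.46 ± 0.66 in CA3 and 2.85 ± 0.50 in DG (SD, n = 17 each), with 13 of 17 CA1 arrays and 13 of 17 DG arrays below their array's median and no CA3 array so. CA1 minus CA3 was −1.70 (SE 0.20, adjusted p 3.1e-07) and CA3 minus DG was 1.61 (SE 0.20, adjusted p 1.1e-07), and both may understate the fold because CA1 and DG lay near background. Sema3e, a secreted ligand of plexin D1, read 5.80, 7.14 and 8.26 in CA1 as lowest, median and highest, 6.51, 7.30 and 7.88 in CA3, and 3.62, 5.75 and 6.96 in DG. Both pyramidal layers lay above DG, by 1.51 in CA1 (SE 0.23, adjusted p 8.2e-06, 16 of 17 mice) and by 1.62 in CA3 (SE 0.23, adjusted p 1.6e-06, 17 of 17 mice). The 2 other Sema3e probe sets gave 1.54 and 1.55 for CA1 minus DG and 1.80 and 1.32 for CA3 minus DG, and all passed. Sema6d, a transmembrane ligand of plexin A1, ran the other way, with 3.98 ± 0.64 in CA1, 4.27 ± 0.69 in CA3 and 5.22 ± 0.67 in DG. It was lower than in DG by −1.24 in CA1 (SE 0.24, adjusted p 0.000269) and by −0.95 in CA3 (adjusted p 0.00424).

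The other semaphorin calls were smaller. Sema7a, which is anchored to the membrane and signals through integrin and plexin C1, read 5.98 to 8.34 in CA1, 4.92 to 6.99 in CA3 and 5.90 to 7.59 in DG, and its excess of 0.60 in CA1 over CA3 (adjusted p 0.0159) was 0.53 without the 7 arrays and then did not pass (adjusted p 0.0855). Sema3a, the classic secreted repellent, was 1.06 higher in CA1 than in CA3 (SE 0.27, adjusted p 0.0118), but it was below the array median in 10 of 17 CA1 arrays and in all 17 CA3 arrays, and its 2 other probe sets gave 0.44 and 0.01 and did not pass. Sema4d was −0.73 in CA1 relative to DG (adjusted p 0.0306) and was −0.60 without the 4 CA1 arrays (adjusted p 0.157), and it was also lost when any of 8 mice was left out, with an adjusted p of up to 0.0723 without DN mouse 5. It was lost too with DN and tTA mice only and without the 5 or the 7 arrays, with an adjusted p of up to 0.403. Between CA3 and DG, Sema4a (0.66), Sema6b (0.53) and Sema6c (0.36) were higher in CA3, and only Sema6b of these had mean signals above the array median in both subfields. Sema6c was lost without the 7 arrays (adjusted p 0.0593), and its 2 other probe sets gave 0.05 and 0.13 and did not pass. The other probe sets of Sema7a (0.65 for CA1 minus CA3) and Sema4d (−0.14 for CA1 minus DG) did not pass either. Sema3b, Sema3c, Sema3f, Sema4b, Sema4f, Sema4g and Sema6a passed in no subfield comparison.

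Of the neuropilins, co-receptors of the secreted class 3 semaphorins, Nrp2 was lower in CA1 than in both other subfields. Nrp2, which binds Sema3f, read 4.31, 5.79 and 6.69 in CA1 as lowest, median and highest, 5.54, 7.14 and 7.95 in CA3, and 6.27, 7.34 and 8.52 in DG. The CA1 arrays overlapped those of CA3 over much of their range and those of DG only at their upper end. Nrp2 differed by −1.75 between CA1 and DG (SE 0.23, adjusted p 1.2e-06, lower in 17 of 17 mice) and by −1.36 between CA1 and CA3 (SE 0.23, adjusted p 0.000166, lower in 14 of 17 mice). Nrp1, which binds Sema3a, averaged 6.41 ± 0.80 in CA1, 7.10 ± 0.75 in CA3 and 6.75 ± 0.47 in DG. Its difference of −0.69 between CA1 and CA3 (adjusted p 0.0431) was lost when any of 10 mice was left out, with an adjusted p of up to 0.0985 without DN mouse 4, and its 2 other probe sets gave −0.38 and −0.25 and did not pass. This call was lost too with no or a random mouse block, with DN and tTA mice only and without the 5 or 7 arrays. The adjusted p then reached up to 0.281. For CA1 minus DG, Nrp1 gave −0.34 (adjusted p 0.371), and −0.07 and 0.28 on the other probe sets, which did not pass either. For CA3 minus DG it gave 0.36 and did not pass. There the other probe sets gave 0.31, which did not pass, and 0.53 (adjusted p 0.0246), which did.

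Plexins, the signalling receptors of semaphorins, passed in none of the 3 comparisons, and their differences ran from −0.22 to 0.57. Plxna2, the receptor of Sema5a, averaged 5.12 ± 0.42 in CA1, 4.55 ± 1.07 in CA3 and 4.75 ± 1.10 in DG (SD, n = 17 each), and it alone of the 6 had a mean above the array median. Plxnd1, the receptor of Sema3e, averaged 2.38 in CA1, 2.40 in CA3 and 2.45 in DG, and Plxna1, a receptor of Sema6d, averaged 2.17 in CA1, 2.13 in CA3 and 1.93 in DG. At signals this low a difference may be missed, so the absence of a call says little about plexins other than Plxna2.

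Of the 11 Eph receptors, 6 were higher in CA3 than in DG and 5 did not pass, 5 were higher in CA1 than in DG, 1 was lower and 5 did not pass, and none passed between CA1 and CA3. Of all probe sets, 7.27% were higher in CA3 than in DG, and 5.6% were higher and 5.33% lower in CA1 than in DG. Epha6 (chr16:59641433-60610911) read 6.50, 7.27 and 8.54 in CA1 as lowest, median and highest, 4.40, 7.10 and 7.87 in CA3, and 3.82, 5.50 and 7.17 in DG. CA1 was highest, and the DG arrays reached the CA1 range only at their top. It was 2.01 higher in CA1 than in DG (SE 0.22, 4.03-fold, adjusted p 2.3e-08, limma) and 1.51 higher in CA3 than in DG (SE 0.22, adjusted p 3.3e-06), each in 17 of 17 mice.

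Epha3, another receptor of the ephrin-As, read 5.62, 6.50 and 7.89 in CA1 as lowest, median and highest, 4.83, 7.32 and 7.89 in CA3, and 3.85, 5.19 and 7.48 in DG. It was 1.95 higher in CA3 than in DG (SE 0.28, adjusted p 2.6e-06) and 1.32 higher in CA1 than in DG (SE 0.28, adjusted p 0.00106), each in 15 of 17 mice. Its 2 other probe sets gave 2.48 and 1.20 for CA3 minus DG and passed, and gave 1.25 and 0.72 for CA1 minus DG and did not pass. Epha5 moved less but more evenly, at 8.26 ± 0.31 in CA1, 8.35 ± 0.36 in CA3 and 7.66 ± 0.32 in DG. Its differences from DG were 0.60 in CA1 (SE 0.08, adjusted p 2.0e-06) and 0.69 in CA3 (SE 0.08, adjusted p 9.0e-08), and 1.23 and 1.58 on its other probe set. Epha4, which binds both classes of ephrins and controls spine shape on CA1 neurons, averaged 9.03 in CA1, 9.19 in CA3 and 8.59 in DG and was 0.44 higher in CA1 than in DG (adjusted p 0.00579) and 0.60 higher in CA3 (adjusted p 0.000124, 17 of 17 mice). The excess of Epha4 in CA1 did not pass with no or a random mouse block or with DN and tTA mice only (adjusted p up to 0.125). The other Epha4 probe set gave 0.42 for CA1 minus DG, which did not pass, and 0.61 for CA3 minus DG, which did. Ephb3 (0.46 in CA1 and 0.51 in CA3 relative to DG) and Ephb6 (0.49 in CA3) also passed, with means below the array median in all 3 subfields. Neither Ephb3 call passed with DN and tTA mice only (adjusted p 0.125 for CA1 and 0.0509 for CA3). Ephb6 was lost with these mice only and without the 5 or the 7 arrays (up to 0.146).

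Epha7 was the Eph receptor that was lower in CA1 than in DG. It averaged 6.74 ± 0.56 in CA1, 7.12 ± 0.48 in CA3 and 7.32 ± 0.40 in DG (SD, n = 17 each), and CA1 minus DG was −0.58 (SE 0.14, adjusted p 0.00574). This call was lost without the 4 CA1 arrays and with DN and tTA mice only, with adjusted p of up to 0.159, and the other Epha7 probe set gave −0.29 and did not pass. Epha1, Epha2, Epha8 and Ephb4 lay below the array median in all 51 arrays.

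The ephrins, the ligands of Eph receptors, included 1 gene with a large difference. Efnb3 (chr11:69554092-69561150), a transmembrane ephrin that binds EphB receptors and EphA4, read 2.33, 4.57 and 6.05 in CA1 as lowest, median and highest, 1.66, 2.72 and 5.33 in CA3, and 4.55, 5.53 and 6.57 in DG. CA3 arrays were lowest, with 10 of 17 below the array median, and 1 CA3 array, of DN mouse 4, reached the DG range. Efnb3 differed by −2.46 between CA3 and DG (SE 0.28, 5.51-fold lower in CA3, adjusted p 3.7e-08, lower in 16 of 17 mice) and was 1.48 higher in CA1 than in CA3 (SE 0.28, adjusted p 0.00065, 16 of 17 mice). Since CA3 lay near background, these folds may be lower bounds. The difference of −0.98 between CA1 and DG (adjusted p 0.0179) did not pass without DN mouse 5 (adjusted p 0.0556) or without the 4 CA1 arrays (−0.73, adjusted p 0.183). It was lost too with DN and tTA mice only. Efna5, a ligand of the EphA receptors, was −0.74 in CA3 relative to DG (adjusted p 0.00351), with all 17 CA3 arrays and 11 of 17 DG arrays below the array median. Efnb1 averaged 4.64, 4.72 and 4.80 and Efnb2 4.15, 3.48 and 4.23 in CA1, CA3 and DG, and neither passed, while Efna1, Efna2 and Efna4 had means below the array median in each subfield.

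Ntng1 encodes netrin-G1, an anchored relative of the netrins that binds a postsynaptic partner rather than Dcc. Ntng1 (chr3:109780050-110149972) read 1.69, 2.15 and 3.54 in CA1 as lowest, median and highest, 1.39, 2.10 and 4.09 in CA3, and 2.46, 3.81 and 6.02 in DG. Most CA1 and CA3 arrays were below the array median, 15 and 14 of 17, and DG arrays lay mostly above it. Ntng1 differed by −1.85 between CA1 and DG (SE 0.30, adjusted p 2.4e-05, lower in 17 of 17 mice) and by −1.90 between CA3 and DG (SE 0.30, adjusted p 1.1e-05, lower in 15 of 17 mice). Ntng2, which encodes netrin-G2, averaged 1.60 in CA1, 1.86 in CA3 and 1.78 in DG and passed nowhere.

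Most of the calls did not depend on the setting. Of the calls, 15 of 20 between CA3 and DG, 9 of 14 between CA1 and DG and 6 of 12 between CA1 and CA3 kept their direction and passed under every alternative run. The 6 between CA1 and CA3 were Sema5a, Sema5b, Nrp2, Efnb3, Slit2 and Unc5c. Without the 7 arrays the calls between CA1 and CA3 numbered 7, with Sema7a, Nrp1, Slit1, Robo1 and Dcc lost. Of 29 readings of other probe sets in comparisons where the gene was called, all had the same sign and 17 passed.

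Genes that act downstream of these receptors or beside them were also counted. Of 38 measured genes of guidance signalling, such as exchange factors, kinases and collapsin response mediators, 11 were lower and 1 higher in CA3 than in DG, 7 were lower and 1 higher in CA1 than in DG, and 2 were higher in CA1 than in CA3. Of all probe sets, 6.59% were lower and 7.27% higher in CA3 than in DG. Between CA1 and DG 5.33% were lower and 5.6% higher in CA1, and between CA1 and CA3 2.22% and 2.46%. Tiam1, an exchange factor for Rac that EphB receptors recruit, was the gene of this list with the largest difference, at −3.56 for CA3 minus DG (adjusted p 1.9e-11) and −2.56 for CA1 minus DG (adjusted p 3.9e-08), and it was also higher in CA1 than in CA3 (adjusted p 0.0354). Mical1, an oxidase that disassembles actin below plexins, was −1.23 in CA3 and −1.10 in CA1 relative to DG, Nck1, an adaptor, was −1.15 in CA3 and Vav3, another exchange factor, was −1.15 in CA1. Dpysl5, a collapsin response mediator, was 0.71 higher in CA1 than in CA3. The medians of the list were −0.16, −0.09 and 0.04 for CA3 minus DG, CA1 minus DG and CA1 minus CA3, beside 0.05, 0.02 and −0.03 over all probe sets.

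Of 20 measured genes of other guidance cues and adhesion molecules, 5 were higher and 5 lower in CA3 than in DG, 5 were higher and 6 lower in CA1 than in DG, and 2 were higher and 3 lower in CA1 than in CA3. The shares of all probe sets, in the same order, were 7.27% and 6.59%, 5.6% and 5.33%, and 2.46% and 2.22%. They apply to the marker counts below as well. Between CA3 and DG, Gpc1, a glypican that binds Slit2, differed by 1.53, Fzd3, a Wnt receptor, by −1.38, and the ligand Wnt5a by −0.99. Between CA1 and DG, Lrig1, a regulator of growth factor receptors, differed by 1.33, the adhesion molecule L1cam by 1.11, and Lrrc4, which encodes the netrin-G2 ligand, by −1.06. Between CA1 and CA3, Lrig1 differed by 2.16, Gpc1 by −0.72 and Fzd3 by 0.64. Markers of other cells differed too, and their part in the members' results was not tested. Of 11 astrocyte markers measured, 6 were lower and 1 higher in CA1 than in DG and 4 were lower in CA3 than in DG, and of 12 interneuron markers 4 were lower and 3 higher in CA1 than in DG, 5 were lower and 1 higher in CA3 than in DG, and 3 were higher in CA1 than in CA3. Of 11 oligodendrocyte markers, none passed between CA1 and either other subfield, and Mal was higher in CA3 than in DG (0.97, adjusted p 0.0385). Of 12 microglial markers, none passed between CA1 and either other subfield, while between CA3 and DG Cx3cr1 (−0.63) and C1qc (−0.87) were lower and Itgam (0.27) was higher in CA3.

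Between genotypes none of the 56 genes passed in any subfield. This held for rTg4510 against tTA mice, where 0% of all probe sets passed in CA1, 0.00442% in CA3 and 0% in DG, for tTA against DN mice, where 0% passed in each subfield, and for rTg4510 against DN mice, where 0.00442%, 0% and 0% passed in CA1, CA3 and DG (limma, 3 genotypes fitted together). The smallest adjusted p of any member was 0.673. At an unadjusted p below 0.05 there were 0 members between rTg4510 and tTA mice in CA1, 2 in CA3 and 2 in DG, beside 3.97%, 5.91% and 5.71% of all probe sets. Between tTA and DN mice there were 4, 4 and 3 of the 56 in CA1, CA3 and DG, beside 4.59%, 6.13% and 5.21% of all probe sets, and between rTg4510 and DN mice 3, 5 and 5, beside 5.39%, 3.94% and 4.73%. Fisher's LSD, the test of the study's methods, also called 0 of the 56 on log2 signals in every comparison. The rTg4510 arrays serve in 2 of these comparisons per subfield, as do the tTA and DN arrays.

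**Figure D3:**
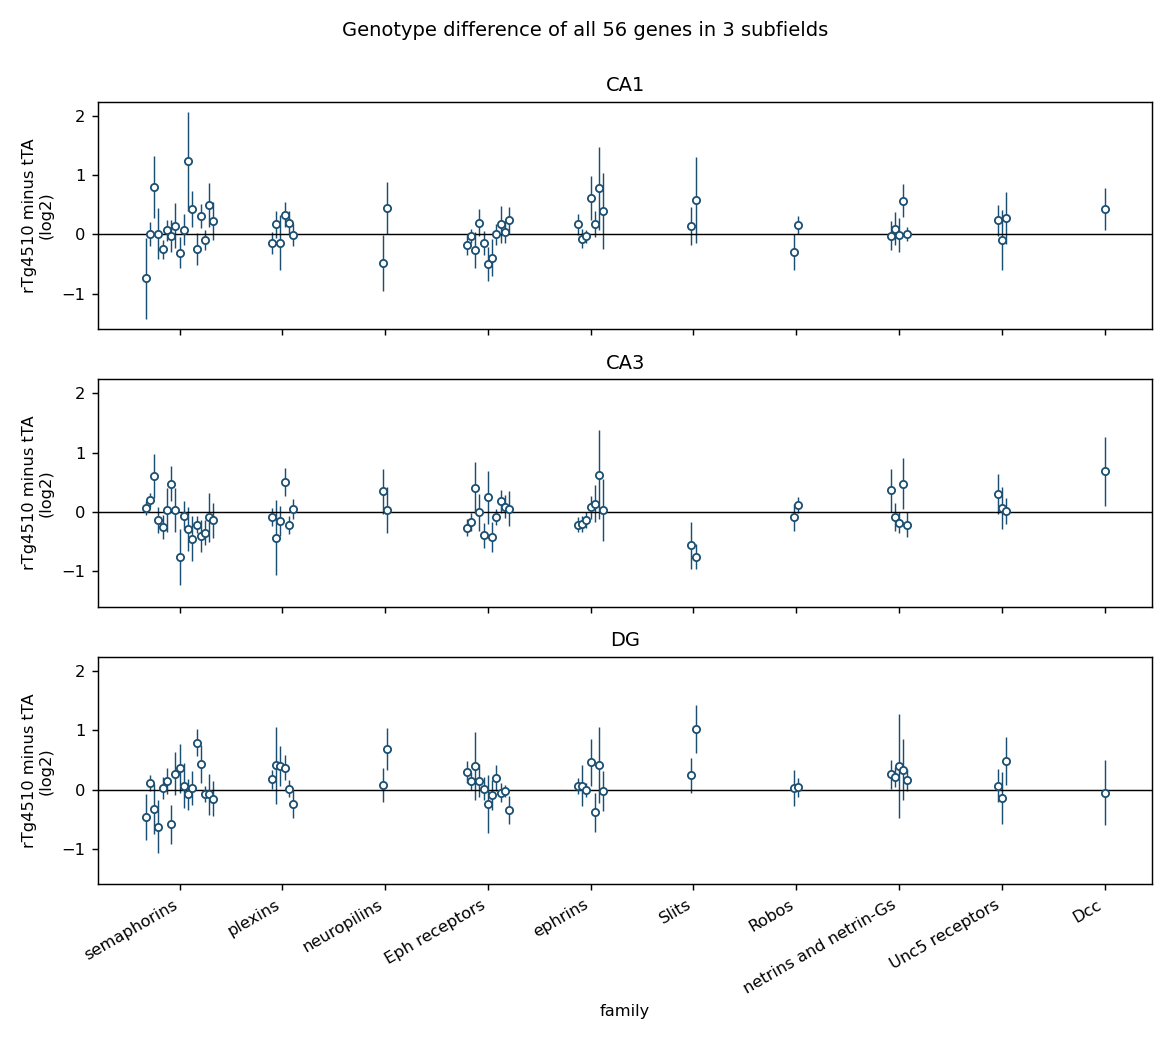
Difference of rTg4510 from tTA mice (y axis, log2, error bars SE) for all 56 genes by family (x axis) in CA1, CA3 and DG, from 6 rTg4510 and 5 tTA mice. All points are open because no gene passed an adjusted p of 0.05, and most differences lie close to 0, with medians of 0.08, −0.07 and 0.07.

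The median difference of rTg4510 from tTA mice was 0.08 in CA1, −0.07 in CA3 and 0.07 in DG, beside −0.02, −0.03 and −0.01 over all probe sets. In CA3 the member with the smallest p was Slit2, which read 5.12, 6.21, 5.80, 5.18, 5.17 and 6.11 in rTg4510 mice, against 6.16, 6.29, 6.42, 6.65 and 6.21 in tTA mice and 5.94, 6.02, 6.32, 5.88, 5.73 and 6.40 in DN mice. In rTg4510 mice 5 of 6 arrays lay below all tTA arrays, and the other, at 6.21, lay at their lower end. Slit2 averaged 5.60 ± 0.50 in rTg4510 mice and 6.35 ± 0.20 in tTA mice (SD, n = 6 and 5), a difference of −0.75 (SE 0.21) with an adjusted p of 0.787. In DG the order was turned, with 4.13 ± 0.78 in rTg4510 mice and 3.11 ± 0.81 in tTA mice, a difference of 1.02 (SE 0.40, adjusted p 0.804) that was 0.82 without the 5 arrays. The difference between the genotype differences in CA3 and DG was −1.77 (SE 0.44) with an adjusted p of 0.677. No member passed in this test for any pair of subfields.

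In DG the member with the smallest p was Sema6a, a transmembrane semaphorin of the plexin A system. Sema6a read 2.52, 2.86, 2.15, 3.83, 2.86 and 2.73 in rTg4510 mice, against 1.84, 2.15, 2.06, 2.16 and 1.94 in tTA mice and 2.58, 2.17, 1.96, 1.77, 2.47 and 2.12 in DN mice. The lowest rTg4510 value, 2.15, belonged to the library labelled rTg4510 mouse 3 that read low for Prnp, and 16 of the 17 DG arrays lay below their array's median for this gene, close to background. The difference of rTg4510 from tTA mice was 0.79 (SE 0.23, adjusted p 0.673), and 0.93 without the 5 arrays, when it also did not pass. In CA3 Sema6a differed by −0.56 between rTg4510 and DN mice (SE 0.15, adjusted p 0.984).

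**Figure D4:**
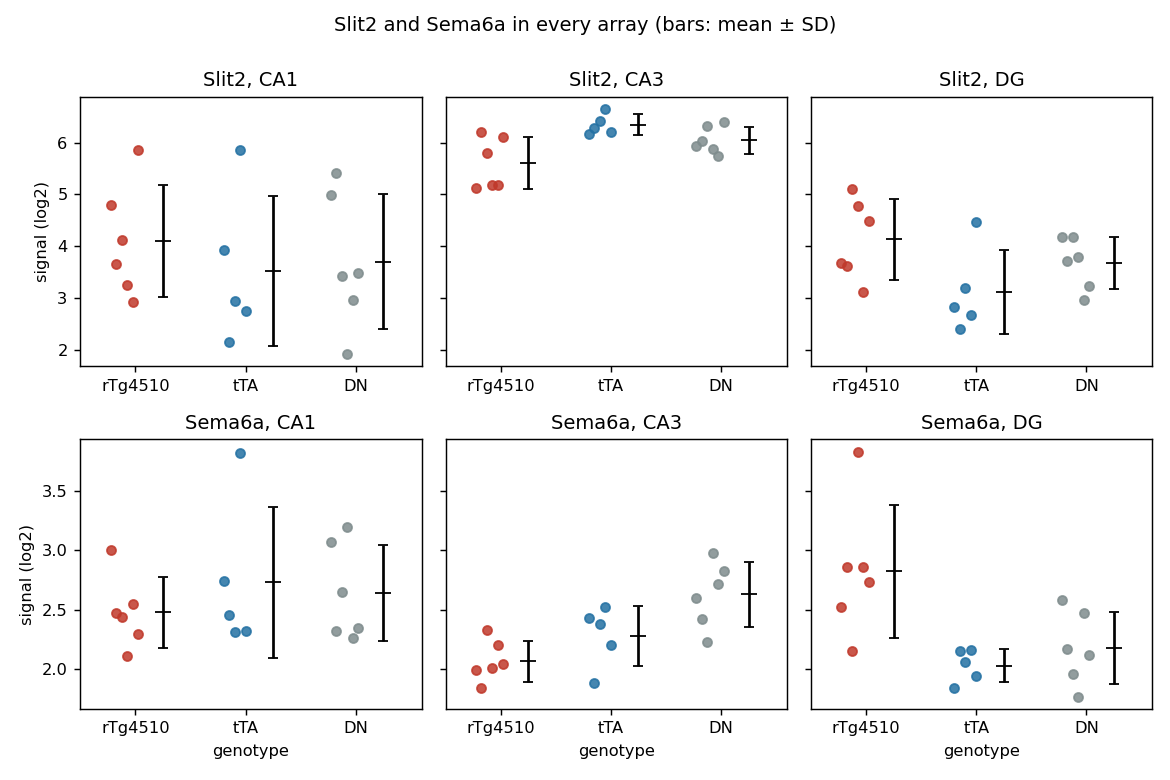
Signal (y axis, log2) of Slit2 and Sema6a in every array by genotype (x axis) in CA1, CA3 and DG, with bars for the mean and SD of 6 rTg4510, 5 tTA and 6 DN mice. Slit2 in CA3 has 5 of 6 rTg4510 arrays below all tTA arrays, and Sema6a in DG lies at 3.83 or below in every array.

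The other members with the smallest p values also had adjusted p of 0.779 or more. Between rTg4510 and tTA mice these were Ntng1 (0.57), Epha6 (−0.50), Efna5 (0.62), Plxnb2 (0.33) and Sema6b (0.31) in CA1, Plxnb2 (0.51), Epha5 (−0.39), Epha1 (−0.26) and Sema3b (0.21) in CA3, and Nrp2 (0.69), Plxnb2 (0.37) and Sema4b (−0.58) in DG. Between tTA and DN mice they were Sema7a (−0.81), Dcc (−0.81), Sema6b (−0.56), Plxna2 (−0.51) and Robo4 (−0.26) in CA1, Dcc (−1.40), Nrp1 (−0.97), Ephb3 (−0.49), Sema6a (−0.35) and Sema3b (−0.25) in CA3, and Ntng1 (−1.62), Unc5c (−1.02), Slit1 (−0.74), Sema6d (−0.69) and Sema5a (−0.52) in DG. Between rTg4510 and DN mice they were Sema3c (1.28), Epha6 (−0.78), Ntng1 (0.61), Epha7 (−0.59) and Sema7a (−0.58) in CA1, Slit1 (−1.03), Epha7 (−0.65), Sema3e (−0.53) and Slit2 (−0.45) in CA3, and Ntng1 (−1.29), Sema3a (−0.87), Sema6d (−0.77), Sema6a (0.65) and Sema5a (−0.60) in DG. Over the 56 genes, rTg4510 minus tTA was negative for 23 in CA1, 29 in CA3 and 19 in DG, or 41.1%, 51.8% and 33.9% of them, beside 53.1%, 55.3% and 51% of all probe sets. The difference of tTA from DN mice was negative for 32, 34 and 36 of them in CA1, CA3 and DG, or 57.1%, 60.7% and 64.3%, beside 49.7%, 45.8% and 47.2% of all probe sets. That of rTg4510 from DN mice was negative for 32, 42 and 31, or 57.1%, 75% and 55.4%, beside 53.7%, 52.4% and 47.4%. These tallies describe the arrays and were not tested.

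Ntng1 in DG, which was called against both pyramidal layers, shows how these values were spread. It read 3.81, 2.46, 5.27, 4.74, 2.84 and 3.78 in rTg4510 mice, 3.57, 4.30, 3.61, 3.26 and 2.66 in tTA mice and 5.79, 6.02, 5.59, 3.49, 4.45 and 5.27 in DN mice. The 2 lowest DN values came from the libraries labelled DN mice 4 and 5, and the highest rTg4510 value from the library labelled rTg4510 mouse 3, which are the 3 DG libraries that went against their labels for Prnp. Without the 5 arrays the differences of Ntng1 were −2.19 for tTA minus DN (adjusted p 0.140) and −2.15 for rTg4510 minus DN (adjusted p 0.127), and neither passed. Sema3a in DG was the only member whose groups did not overlap between rTg4510 and tTA mice, at 1.62 to 2.08 against 2.09 to 2.74, where 0.411% of all probe sets did not overlap, and these signals lay below the array median.

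Markers of other cells stood beside these genotype comparisons as follows. The mean signal of 11 oligodendrocyte markers in CA1 ran from 4.70 to 6.49 in rTg4510 mice, from 3.50 to 5.40 in tTA mice and from 3.04 to 4.79 in DN mice, and that of 12 microglial markers from 2.95 to 4.85 in rTg4510, from 2.72 to 2.95 in tTA and from 2.69 to 3.22 in DN mice. In CA3 the oligodendrocyte markers ran from 4.28 to 5.49 in rTg4510 mice, from 3.66 to 4.63 in tTA mice and from 3.50 to 4.97 in DN mice, and in DG from 3.47 to 5.59 in rTg4510, from 3.22 to 3.97 in tTA and from 3.32 to 5.23 in DN mice. For rTg4510 minus tTA, oligodendrocyte markers were positive in 10 of 11 in CA1 (median 0.99), 9 of 11 in CA3 (median 0.88) and 11 of 11 in DG (median 0.76). Microglial markers were positive in 11 of 12 in CA1 (median 0.78), 8 of 12 in CA3 (median 0.29) and 4 of 12 in DG (median −0.31). Of 11 astrocyte markers, 11, 8 and 11 were positive in CA1, CA3 and DG (medians 0.35, 0.14 and 0.27). Of 13 vascular markers, 9, 11 and 12 were positive (0.09, 0.26 and 0.32), and of 12 interneuron markers 6, 7 and 4 (−0.01, 0.36 and −0.19). Of 6 CA1 pyramidal markers, 0, 2 and 3 were positive (−0.46, −0.13 and 0.07). No marker of these lists passed, and their part in the members' values was not tested. The CA3 marker list in CA1 arrays ran from 4.17 to 5.90 in rTg4510 mice, from 3.61 to 5.36 in tTA mice and from 3.62 to 5.33 in DN mice. Sema5a in CA1, a gene with high signals in CA3, averaged 4.77 ± 1.23 in rTg4510 mice and 3.53 ± 1.62 in tTA mice (SD, n = 6 and 5), a difference of 1.23 that did not pass, and the part of the CA3 markers in it was not tested.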

How the data were processed

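The authors deposited RMA log2 signals, background-corrected, normalized and summarized per probe set, from Affymetrix HT-MG-430A arrays of amplified RNA (Ovation Pico WTA, Encore Biotin). They are named anti-log values in the methods, but their range is that of log2 values and they were used as such. The RMA version and the arrays normalized together are not given in the sources used here. After 90 control probe sets were left out, 22626 were tested without a filter. Symbols came from the platform annotation (1 symbol for 18003 probe sets, several for 287, none for 4336), Prnp's name from the study's supplementary tables, and coordinates from RefSeq (GRCm38.p6).

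With limma 3.58.1 (R 4.3.3), subfields were compared over 51 arrays with the mouse as a block, genotypes over the 17 arrays of a subfield, and the difference of genotype differences on within-mouse differences, with Benjamini-Hochberg adjustment. The labels give 3 arrays to each mouse, and residuals of arrays of 1 mouse correlated at a mean r of 0.0492, against −0.0022 for other mice. The highest correlation of any pair of arrays was 0.979. The spread between mice sets the precision. Fits were tested on simulated data. Named with full statistics were members with the largest differences among those past 0.05 and, where fewer than 3 passed, the 5 smallest p. The members, lists and tests were chosen with earlier results of these data known. Alternatives were a filter at the 40th percentile, other normalizations, an intensity trend, array weights, Fisher's LSD, other blocks, only some genotypes, 1 probe set per gene and leaving out each mouse. Leaving out 5 arrays, 7 arrays or 4 CA1 arrays was added after the data were seen. Promoters were matched by symbol for 48 of 56 members. Python 3.11.15 and matplotlib 3.10.9 were used for tables and figures.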

Additional observations from a re-analysis of the deposited data

Results flagged for a closer look

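In 9 of 79 groups of 5 or 6 mice, those of the genes named between genotypes, the highest or lowest array stood apart from the others by Dixon's test, which chance alone gives in about 1 in 20 groups. In CA1, tTA mouse 4 read highest for Ntng1 at 2.69 (the others 1.91 to 2.07) and for Robo4 at 1.9 (1.18 to 1.39). In CA3, Plxnb2 read lowest in tTA mouse 4 at 1.31 (1.76 to 1.94), Epha5 lowest in tTA mouse 5 at 8.05 (8.57 to 8.69), Epha7 highest in DN mouse 4 at 8.37 (6.88 to 7.39) and Slit1 lowest in DN mouse 2 at 3.8 (5.50 to 6.21). In DG, Sema4b read highest in rTg4510 mouse 2 at 4.14 (2.67 to 3.21), Plxnb2 highest in tTA mouse 1 at 2.76 (1.73 to 1.93) and Sema5a lowest in rTg4510 mouse 4 at 6.16 (7.50 to 7.95). The library labelled DN mouse 4 in CA3 is among those that went against the label for Prnp. Ntng1, Robo4 and Plxnb2 lay below the array median in these groups.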

How the results depend on the processing

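No call between subfields changed direction under any alternative. Leaving out each mouse in turn gave 8 to 12 calls between CA1 and CA3, 13 to 15 between CA1 and DG and 19 to 21 between CA3 and DG. Without the 7 arrays there were 7 calls between CA1 and CA3, against 12, and the cause was not tested. The fit with no replicate block gave 9, 14 and 19 calls for CA1 minus CA3, CA1 minus DG and CA3 minus DG, and the mouse as a random block 9, 14 and 20. With DN and tTA mice only there were 8, 10 and 17. Without the 4 CA1 arrays there were 12, 11 and 20, with Sema4d, Epha7 and Efnb3 lost between CA1 and DG. The calls between genotypes stayed at 0 under all alternatives, the block included. Of the 56 members, 29 had mean signals below the mean array median, and 7 of these passed in some subfield comparison. For members this dim a missing call says little, and the fold of a call may be a lower bound.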
